A study of Homo sapiens with 6 samples.

Results

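The metallothioneins are small proteins built around cysteine residues, which hold zinc and copper ions inside the cell and also bind cadmium and other toxic metals. Their genes are switched on by MTF1, a zinc-finger transcription factor that senses free zinc and binds short DNA stretches called metal response elements in front of the metallothionein genes and of SLC30A1, the zinc exporter of the plasma membrane. Stress signals and glucocorticoids can raise the same genes. Zinc is carried out of the cytosol by the SLC30 (ZnT) family and into it by the SLC39 (ZIP) family.

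Here 9 metallothionein genes (MT1A, MT1E, MT1F, MT1G, MT1H, MT1M, MT1X, MT2A and MT3) and MTF1 were followed, taken by gene symbol as 10 of the 19977 genes listed in each library. All 10 were present, and 8 had at least 10 counts over the 6 libraries and were tested. The transcripts were measured by bulk RNA-seq in NCRM-1, a human induced pluripotent stem cell line made from CD34+ cord blood cells with episomal plasmids and labelled wild type. Single cells were seeded in vertical wheel bioreactors and grown as aggregates for 4 days, with 50% of the medium replaced on day 2. Of the 6 libraries, 3 came from E8 medium that also held 10 mg/ml of PEG with heparin sodium salt at 0.1 µg/ml (named PEG and HS), and 3 from E8 medium without additives (Control). Both media held the ROCK inhibitor Y-27632 at seeding. The effect of PEG cannot be told apart from that of heparin, since the additives were given together. A free-text label describes the PEG and heparin medium for each library, also for those whose treatment is Control, so groups follow the treatment field of each library. The labels speak of a treated and a control bioreactor in the singular, so the vessel and the medium cannot be told apart. Nothing says that the replicates came from separate cultures, so p-values measure only the spread between these libraries.

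Between 26991279 and 36185138 reads were counted on genes in each library. Levels are given as CPM, counts scaled to the TMM-adjusted library size, and changes as log2 fold changes of PEG and HS over Control with their standard error (SE) and the Benjamini-Hochberg adjusted p of edgeR's quasi-likelihood test over the 16505 genes tested. A gene was called at an adjusted p under 0.05, and of all genes tested 12.2% were called higher and 13.1% lower. The 8 pluripotency markers summed to 8637 to 8827 CPM with PEG and HS, against 8262 to 8389 CPM in Control, with 4 called higher and 2 lower. The higher ones were POU5F1, NANOG, L1TD1 and DPPA4 (log2 fold changes 0.23, 0.55, 0.36 and 0.30). The lower ones were SOX2 (-0.59) and LIN28A (-0.30). Of 6 neuroectoderm markers, 6 were called lower in PEG and HS, with HES5 losing its call under the replicate block and without PEG and HS replicate 1 or 2 or Control replicate 1 or 2 (adjusted p of at most 0.117), and their summed level was 20.3 to 22.4 CPM there against 70.8 to 74.1 CPM in Control. Of 6 fibroblast markers, 1 was called higher and 4 lower, with summed levels of 562 to 596 CPM with PEG and HS, against 484 to 522 CPM in Control. The marker called higher was THY1, which pluripotent cells also carry, at 408 ± 12.9 CPM against 264 ± 7.29 CPM (SD, n = 3). Without it the other 5 summed to 165 to 174 CPM in PEG and HS libraries and 228 to 254 CPM in Control. Of the 4 lower, DCN overlapped between media and lost its call under limma-voom and without PEG and HS replicate 1 or 2 or Control replicate 1 or 2 (adjusted p of at most 0.0912). The 6 trophectoderm and amnion markers summed to 4.69 to 4.91 CPM with PEG and HS, against 13.2 to 13.8 CPM in Control, with CGA at 0 in each library. Of the 4 that were tested, 2 were called lower. The 8 mesoderm and endoderm markers summed to between 4.80 and 5.40 CPM over all libraries, and none of the 6 tested was called. The part of these cell type differences in the metallothionein results was not tested. In bulk RNA fewer expressing cells and less RNA per cell cannot be told apart.

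The 9 metallothionein genes lie within 95.1 kb of chromosome 16 (GRCh38, 56589074 to 56684196), 8 on the plus strand and MT1G on the minus strand. The upstream sequence of 3 of them, and of MTF1, was found in the RefSeq promoter table. The core letters of the metal response element, TGCACNC or TGCGCNC, were searched on both strands in the 250 bases before each start. The other metallothioneins had no entry and could not be searched. MT2A and MT1X were higher in PEG and HS, whereas MT1H was not called. The sequences of MT2A, MT1H and MT1X, the 3 metallothioneins with an entry, are shown, and they hold these letters many times. They are written 5′ to 3′ in the direction of the gene, with each match in capitals. A match on the opposite strand reads GNGTGCA or GNGCGCA.
MT2A (GRCh38.p14, chr16:56608334-56608583, plus strand): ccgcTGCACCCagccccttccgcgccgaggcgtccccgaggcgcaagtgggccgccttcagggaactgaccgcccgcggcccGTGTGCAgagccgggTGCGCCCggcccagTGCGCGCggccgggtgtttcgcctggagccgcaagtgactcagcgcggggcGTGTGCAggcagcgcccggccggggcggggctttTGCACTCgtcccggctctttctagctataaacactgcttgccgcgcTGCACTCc
MT1X (GRCh38.p14, chr16:56682220-56682469, plus strand): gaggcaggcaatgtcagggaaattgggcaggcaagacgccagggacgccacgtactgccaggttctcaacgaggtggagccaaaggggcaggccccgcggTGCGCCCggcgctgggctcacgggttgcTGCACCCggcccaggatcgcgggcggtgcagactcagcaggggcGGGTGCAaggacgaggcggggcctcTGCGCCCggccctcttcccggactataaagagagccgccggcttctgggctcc
MT1H (GRCh38.p14, chr16:56669564-56669813, plus strand): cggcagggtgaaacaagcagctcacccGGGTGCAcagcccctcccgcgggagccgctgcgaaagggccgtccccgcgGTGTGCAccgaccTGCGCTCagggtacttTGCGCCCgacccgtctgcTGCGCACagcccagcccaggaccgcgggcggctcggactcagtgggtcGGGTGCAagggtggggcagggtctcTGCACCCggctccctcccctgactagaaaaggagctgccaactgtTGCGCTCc

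MT1H held 8 matches, MT2A 7 and MT1X 4, and none of these overlapped another. Of the 35116 RefSeq promoters searched in the same way, 24.8% held at least 1 match, 0.37% at least 4 and 0.0313% at least 7. In MT1H and MT1X a match began 53 bases before the start and another 78 bases before it, and in MT2A a match began 54 bases before it. MT2A and MT1H also had a match 8 bases before the start that MT1X did not have. The promoter of MTF1 itself (chromosome 1, minus strand) held 0 matches. A match is a string of letters and was not measured as a bound site.

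**Figure D1:**
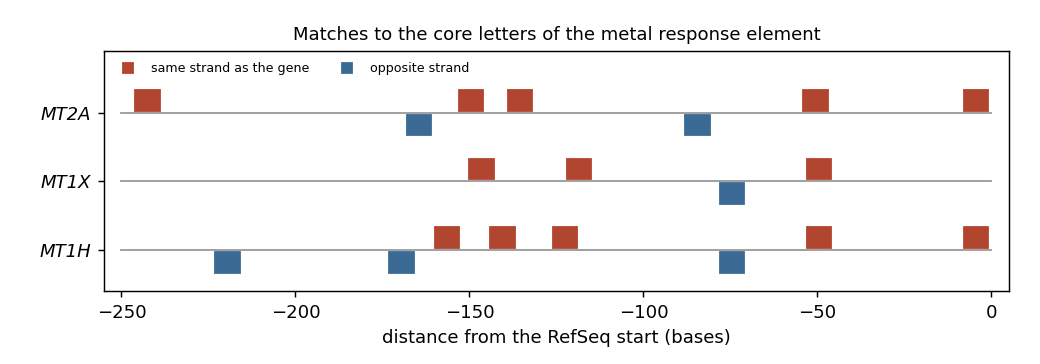
Positions of the letters TGCACNC or TGCGCNC in the 250 bases before the RefSeq start of MT2A, MT1X and MT1H, with the distance from the start in bases on the x axis, matches on the gene's strand above each line and on the opposite strand below it. MT1H held 8 matches, MT2A 7 and MT1X 4.

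MT1X, MT2A, MT1F and MT1G, the 4 most counted metallothioneins, were each higher in PEG and HS, by 1.35 to 1.44-fold. MT1E and MT1H, which are also expressed in these cells, and the regulator MTF1 were not called. The 4 higher genes were 4 of the 8 members tested, and no member was called lower. Over all genes tested, 25.3% were called, 12.2% higher and 13.1% lower. In the same 4 members each PEG and HS library lay above each Control library, whereas over all genes tested the media did not overlap in 39.3%, with PEG and HS above in 19.5% and below in 19.8%. The median log2 fold change was 0.30 over the 8 tested members and 0.0031 over all genes tested. Members with few counts were not tested, so the 8 are not the whole list.

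MT1X (ENSG00000187193, chromosome 16, 56682470 to 56684196, 3 exons), a zinc- and cadmium-binding MT1 isoform, was the most counted metallothionein. It had 530, 465 and 581 counts in the PEG and HS replicates, or 15.7, 16.5 and 17.2 CPM. The Control replicates had 318, 391 and 379 counts, or 11.8, 12.0 and 10.5 CPM. Each PEG and HS library therefore lay above each Control library. The means (n = 3) were 16.4 ± 0.726 CPM against 11.4 ± 0.822 CPM, with the SD as error. The log2 fold change was 0.53 with an SE of 0.069 (edgeR, adjusted p = 3.85e-05). The 95% interval of the fold ran from 1.30 to 1.60.

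MT2A (ENSG00000125148, chromosome 16, 56608584 to 56609497, 3 exons) encodes the MT2 isoform, in many human tissues the most abundant metallothionein. Its level was 6.61, 7.61 and 6.23 CPM with PEG and HS, against 4.74, 5.63 and 4.68 CPM in Control. The highest Control library, replicate 2, still lay below the lowest PEG and HS library, replicate 3. The log2 fold change was 0.44 (SE 0.11, adjusted p = 0.00744, edgeR).

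MT1F (ENSG00000198417, chromosome 16, 56657731 to 56660698, 3 exons), another MT1 isoform, was at 6.82, 6.41 and 5.35 CPM with PEG and HS, against 4.71, 4.62 and 4.32 CPM in Control. The groups did not overlap, and the PEG and HS replicates were spread more widely than those of Control (SD 0.759 against 0.201 CPM, n = 3 each). Its log2 fold change was 0.45 (SE 0.11, adjusted p = 0.00729, edgeR). Without PEG and HS replicate 1, its highest library, the log2 fold change was 0.37 and the adjusted p rose to 0.0523 (edgeR). The call was thus lost without that library. Calls over all genes also fell in that setting, from 4173 to 3114, and the part of the smaller number of libraries was not tested.

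MT1G (ENSG00000125144, chromosome 16, 56666730 to 56668065, 3 exons), the only member on the minus strand of the cluster, was at 4.66, 4.07 and 4.26 CPM with PEG and HS, against 2.89, 3.26 and 3.13 CPM in Control. All PEG and HS libraries again lay above all Control libraries. The log2 fold change was 0.48 (SE 0.12, adjusted p = 0.00819, edgeR). The calls of MT1X, MT2A and MT1G held under the 13 other settings tried, with adjusted p of at most 0.000411, 0.0434 and 0.0451.

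MT1E (ENSG00000169715, chromosome 16, 56625475 to 56627112) was at 2.19, 2.51 and 2.39 CPM with PEG and HS, against 2.63, 2.28 and 2.38 CPM in Control, and the groups overlapped. Its log2 fold change was -0.037 (adjusted p = 0.894, edgeR), with a 95% interval of the fold from 0.780 to 1.22. This interval does not include the fold of 1.35 fitted for MT2A, but it overlaps the 95% interval of that fold, 1.15 to 1.59. It also overlaps the intervals of MT1F (1.16 to 1.60) and MT1G (1.17 to 1.67), but not that of MT1X (1.30 to 1.60). The difference between the genes was not tested in the fit. MT1H (ENSG00000205358, chromosome 16, 56669814 to 56671129) had 43, 31 and 42 counts with PEG and HS, against 31, 37 and 35 in Control. At this depth the 95% interval of its fold, 0.802 to 1.55, included both no change and the folds of the 4 higher genes (adjusted p = 0.664, edgeR).

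MTF1 (ENSG00000188786, chromosome 1, 37809574 to 37859592, 11 exons), the metal-sensing factor, was at 21.9, 21.4 and 21.4 CPM with PEG and HS, against 23.0, 20.6 and 21.2 CPM in Control. The PEG and HS libraries fell within the range of the Control libraries. The log2 fold change was 0.0014 (SE 0.055, adjusted p = 0.993, edgeR), and the 95% interval of the fold, 0.923 to 1.09, was the narrowest of the members. A transcript level does not show the activity of the factor, and a gene on the opposite strand overlaps MTF1.

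**Figure D2:**
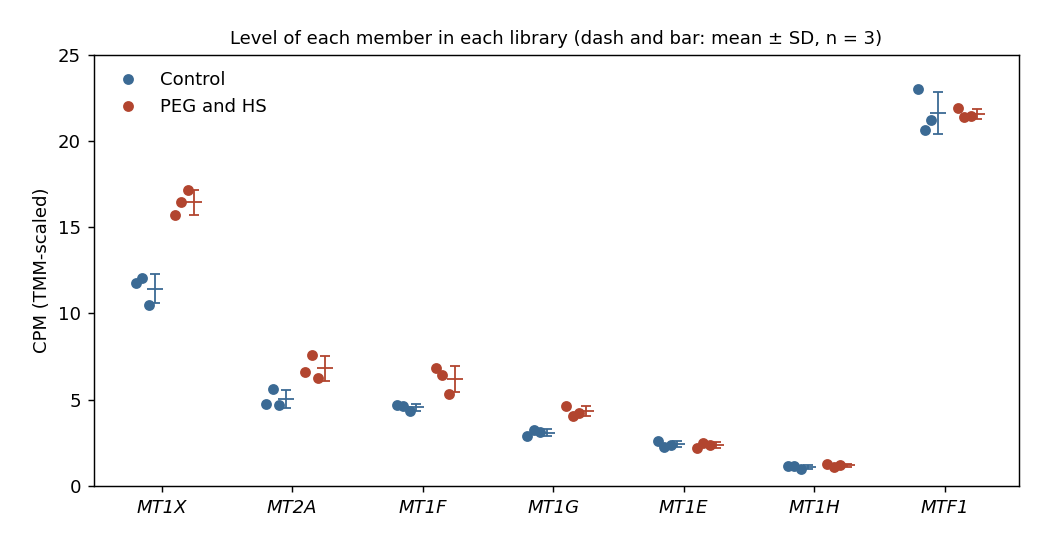
CPM in each library (points) with the mean and SD of 3 replicates (dash and bar) for the 6 metallothioneins above 1 CPM and for MTF1, in Control (blue) and PEG and HS (red). For MT1X the PEG and HS libraries lay at 15.7 to 17.2 CPM and the Control libraries at 10.5 to 12.0 CPM, whereas the libraries of MT1E, MT1H and MTF1 overlapped.

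**Figure D3:**
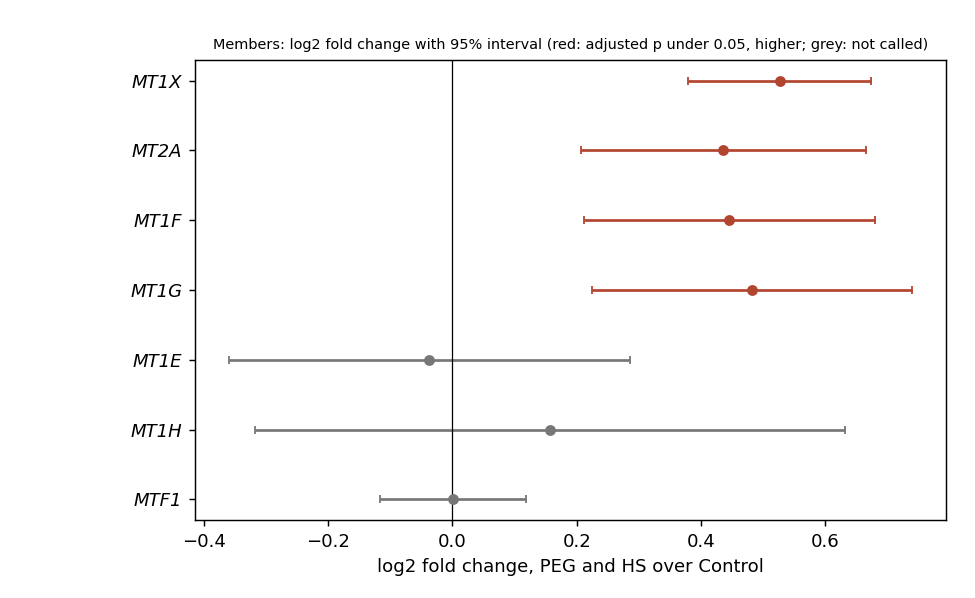
Log2 fold change of PEG and HS over Control on the x axis, with its 95% interval, for the same 7 genes. The intervals of MT1X, MT2A, MT1F and MT1G lie above 0, and those of MT1E, MT1H and MTF1 include 0.

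The remaining metallothioneins were barely detected. MT1M had 4, 0 and 0 counts with PEG and HS, against 4, 2 and 4 in Control (adjusted p = 0.406, edgeR), too few to show a difference. MT1A had 0, 1 and 1 counts with PEG and HS, against 3, 0 and 1 in Control, and was not tested. MT3, a metallothionein known from neurons, had 3 counts in PEG and HS replicate 2 and 0 in each other library. The related genes MT1B, MT4 (known from stratified epithelia) and MT1HL1 had 0 counts in each library. A count of 0 allows up to 3 counts, or 0.0831 to 0.111 CPM in these libraries, by counting error only.

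Compared per kilobase of the GENCODE canonical transcript, the order of the detected metallothioneins in Control was MT1X, MT2A, MT1F, MT1G, MT1E and MT1H. MT1X stood at 28.3 ± 2.04 CPM per kb (SD, n = 3) in Control and 40.7 ± 1.80 CPM per kb in PEG and HS, above each library of the next gene in both media. MT2A followed with 12.5 ± 1.32 and 17 ± 1.77 CPM per kb, and MT1F with 10.7 ± 0.473 and 14.6 ± 1.79 CPM per kb. The libraries of MT2A and MT1F overlapped in PEG and HS and did not in Control. MT1G came next in both media, at 7.55 ± 0.459 CPM per kb in Control and 10.6 ± 0.731 CPM per kb in PEG and HS. The neighbours MT1E and MT1H overlapped in PEG and HS (3.17 ± 0.216 and 3.03 ± 0.238 CPM per kb) and did not in Control. MTF1, whose transcript of 7937 bases is far longer, stood at 2.72 CPM per kb in both media, overlapping MT1H in Control. The order did not change between media for the genes down to MTF1. The canonical transcript of MT1E has 746 bases and those of the other metallothioneins 396 to 425, so the place of MT1E depends on that model.

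Added together, the 9 metallothionein genes had 37.4, 38.3 and 36.7 CPM with PEG and HS, against 28.2, 29.0 and 26.1 CPM in Control, without overlap. The means were 37.5 ± 0.812 and 27.8 ± 1.49 CPM (SD, n = 3), a log2 ratio of 0.43 or 1.35-fold. MT1X made up 44% of the summed counts with PEG and HS, against 41.1% in Control, and MT2A 18.1% in both. Without MT1X the log2 ratio was 0.36.

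Ratios of counts within a library do not depend on the scaling of the libraries. The reference, MT1X, had the largest log2 fold change of the members, so a gene that does not change falls relative to it. Relative to MT1X, MT2A stood at 41.5 ± 4.98% with PEG and HS, against 43.9 ± 3.33% in Control, MT1F at 37.8 ± 6.20% and 39.8 ± 1.40%, and MT1G at 26.4 ± 2.81% and 27.2 ± 2.64% (SD, n = 3). These ratios overlapped between media. MT1E stood at 14, 15.3 and 13.9% of MT1X with PEG and HS, against 22.3, 18.9 and 22.7% in Control, and MT1H at 8.11, 6.67 and 7.23% against 9.75, 9.46 and 9.23%. Both were lower in each PEG and HS library than in each Control library. In a two-sided exact permutation test each of these 2 differences gave p = 0.1, the smallest that 3 libraries against 3 allow, and p = 0.25 after Benjamini-Hochberg adjustment over the 5 ratios. The exact permutation p of the other 3 ratios was 0.6 to 0.9. With 3 libraries against 3 this test cannot reach the 0.05 level, whatever the values.

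The metallothionein genes are close copies, and how multi-mapping reads were counted is not given in the sources used here. Of the 31-base words in its GENCODE transcripts, MT1X shared 5.16% with other genes listed in the count files, MT1F 3.20%, MT2A 6.31%, MT1E 11.3%, MT1G 23.0% and MT1H 29.9%. The words were pooled over all GENCODE transcripts of a gene. They numbered 1783 for MT1X, 1904 for MT1F, 967 for MT2A, 1079 for MT1E, 807 for MT1G and 722 for MT1H. A low percentage can therefore also come from more annotated transcript sequence, and the percentages do not compare directly between genes. MT1G and MT1H, which lie next to each other on opposite strands, shared most with each other (14.3% of the words of MT1G and 15.9% of those of MT1H). With pseudogenes and other genes counted as well, the share of MT1X was 20.3%, most of it with ENSG00000259827, a gene annotated on the same strand that overlaps it. By these percentages, the values of MT1G and MT1H rest on transcripts with the largest shared part among the detected members.

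**Figure D4:**
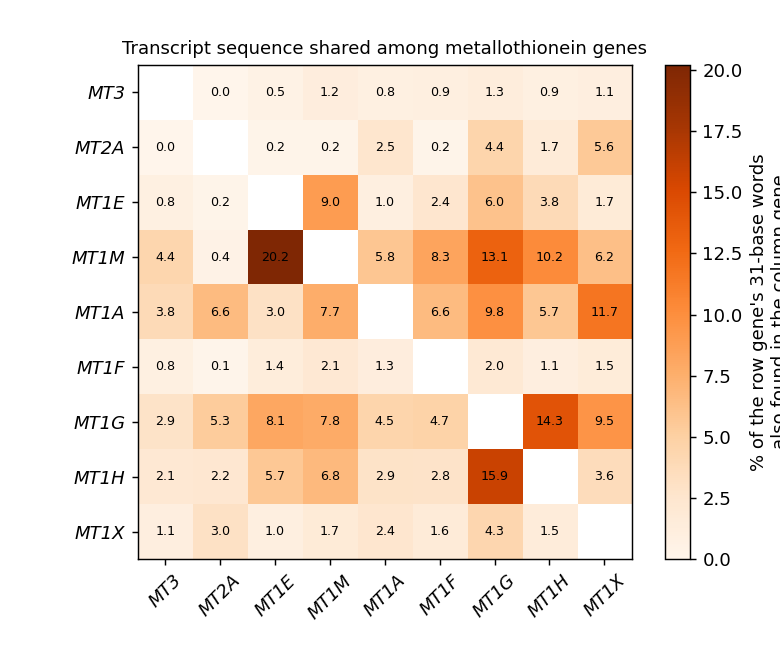
Share, in percent, of the 31-base words of each metallothionein gene's GENCODE transcripts (rows) that also occur in another metallothionein gene (columns), in chromosomal order. The pair MT1G and MT1H shared 14.3% and 15.9%. MT1X held 9.54% of the words of MT1G and 11.7% of those of MT1A, while 4.32% of its own words occurred in MT1G. The rows have unlike numbers of words, 1783 for MT1X, 807 for MT1G and 722 for MT1H.

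Among the zinc transporters, genes were called in both directions. Of 10 SLC30 exporters, all tested, 2 were called higher and 2 lower, with a median log2 fold change of 0.0095. Of 14 SLC39 importers, 13 were tested, with 2 called higher, none lower and a median of 0.032. Over all genes tested, 12.2% were called higher and 13.1% lower.

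SLC30A1, the plasma membrane exporter and a known MTF1 target, was at 61.7, 57.2 and 58.6 CPM with PEG and HS, against 45.2, 46.4 and 49.8 CPM in Control. It rose without overlap (edgeR, adjusted p = 5.07e-05), with a log2 fold change of 0.33 and an SE of 0.044. SLC30A7, a Golgi zinc transporter, was called higher by less (log2 fold change 0.21, adjusted p = 0.0122, edgeR), and its call was lost without PEG and HS replicate 1 or Control replicate 2 (adjusted p of at most 0.0662). Of the exporters that carry zinc into vesicles, SLC30A3 (synaptic vesicles) fell from 11.4 ± 0.190 to 7.60 ± 0.962 CPM (log2 fold change -0.59, adjusted p = 0.000105). SLC30A8, the transporter of insulin granules, fell from 3.24 ± 0.0768 to 1.94 ± 0.111 CPM (log2 fold change -0.74, adjusted p = 0.00116).

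SLC39A8, an importer of zinc and manganese that also carries cadmium, had the largest rise among the zinc transporters called higher. It was at 27.8, 28.1 and 28.3 CPM with PEG and HS, against 18.1, 16.1 and 19.3 CPM in Control (edgeR, adjusted p = 1.16e-06), with a log2 fold change of 0.65 and an SE of 0.061. SLC39A14, a related importer of zinc, iron and manganese, was the most counted gene of both families, with 333 ± 6.47 CPM against 254 ± 2.15 CPM in Control (n = 3, SD). Its log2 fold change was 0.39 (SE 0.026, edgeR, adjusted p = 2.73e-08). SLC39A10, named here because MTF1 is known to repress it, had 151 ± 4.93 and 158 ± 6.11 CPM and was not called (log2 fold change -0.067, adjusted p = 0.18, edgeR).

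**Figure D5:**
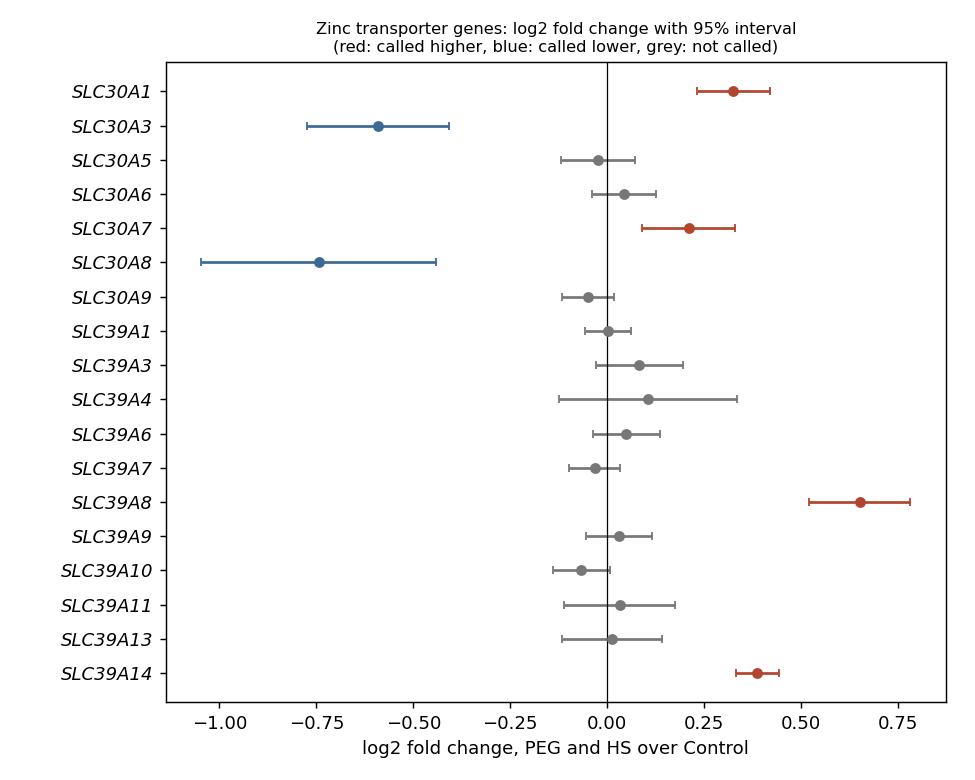
Log2 fold change of PEG and HS over Control, with its 95% interval, for the 18 of 24 zinc transporter genes with a mean of at least 1 CPM over the media. SLC39A8, SLC39A14, SLC30A1 and SLC30A7 were called higher (red), SLC30A3 and SLC30A8 lower (blue).

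The calls in the copper, stress and glucocorticoid lists are to be read beside the 25.3% of all genes tested that were called, 12.2% higher and 13.1% lower. The copper list had 2 calls of 12, the stress list 3 of 12 and the glucocorticoid list 3 of 8. Of 12 copper-handling genes tested, with a median log2 fold change of 0.00034, SCO1, a copper chaperone of cytochrome c oxidase, was called higher (log2 fold change 0.10, adjusted p = 0.0337) and ATOX1, the chaperone that delivers copper to ATP7A and ATP7B, lower (log2 fold change -0.17, adjusted p = 0.025, both edgeR). DESeq2 called neither, and neither was called without PEG and HS replicate 1, Control replicate 1 or Control replicate 2, while the call of SCO1 was also lost without PEG and HS replicate 3. Of 12 metal and oxidant stress genes, with a median of 0.018, HSPA1B was called higher (log2 fold change 0.23, adjusted p = 4.7e-05), and TXNIP, an inhibitor of thioredoxin (log2 fold change -0.86, adjusted p = 3.86e-05), and SQSTM1, an autophagy adaptor (log2 fold change -0.15, adjusted p = 0.00179), lower. HSPA1B is a near-identical copy of HSPA1A, which was not called, so the pair is uncertain where reads are shared. HMOX1, the heme oxygenase that cadmium and other metals raise, was at 24.9 ± 1.10 CPM with PEG and HS, against 24.5 ± 0.587 CPM in Control (adjusted p = 0.774, edgeR).

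Among 8 genes of the glucocorticoid response, with a median log2 fold change of -0.064, SGK1, a kinase (log2 fold change 0.37, adjusted p = 0.000132), and PER1, a clock repressor (log2 fold change 0.15, adjusted p = 0.0224), were called higher and NR3C1, the glucocorticoid receptor, lower (log2 fold change -0.30, adjusted p = 0.0024, all edgeR). The call of PER1 was lost without PEG and HS replicate 2, Control replicate 2 or Control replicate 3 (adjusted p of at most 0.102). The other 5 genes were not called. FKBP5, a widely used glucocorticoid target, had a log2 fold change of 0.021 (adjusted p = 0.758, edgeR) and TSC22D3 one of 0.23 (adjusted p = 0.0822, edgeR). KLF9, DUSP1 and ZBTB16 had log2 fold changes of -0.44, -0.15 and -0.43 (adjusted p = 0.119, 0.158 and 0.371, edgeR).

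Genes other than metallothioneins that held at least 4 of the metal response element letters in the 250 bases before their start were also counted. Of 60 such genes tested, 8 were called higher (13.3%) and 4 lower (6.67%), with a median log2 fold change of 0.029. With at least 3 matches, 11% of 283 genes were called higher and 9.89% lower. With at least 2 it was 11.7% and 12.8% of 1206 genes, and with at least 1 it was 12.8% and 13.7% of 4153. Among the 12920 tested genes with a promoter entry, 12.5% were called higher and 13% lower. Of the zinc transporters called higher, SLC30A1 had 1 match, SLC30A7 and SLC39A8 had 0, and SLC39A14 had no entry.

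The genes whose level followed the summed metallothionein level most closely over the 6 libraries were TRMU, GART, BBS4, GRAMD1A and FERMT1, with Pearson's r of log2 CPM from 0.997 to 0.999. In each of these 5 genes the PEG and HS libraries were the higher ones, with log2 fold changes of 0.15 to 0.34. Of the 13532 genes compared, 1100 had an r over 0.9. The points share their libraries and the difference between media, so these r are a description only.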

How the data were processed

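Bulk RNA-seq libraries of 3 PEG and HS and 3 Control samples were used. The authors deposited raw read counts per Ensembl gene for each library. Per the labels and methods, reads were processed in the nf-core/rnaseq pipeline, with trimming by Trim Galore 0.6.7 and mapping to GRCh38 by STAR 2.6.1. Which counting tool of that pipeline made the deposited counts, its strand setting, its handling of multi-mapping reads and the annotation release are not given in the sources used here. Of 19977 identifiers, 19916 matched GENCODE 44, which gave symbols, coordinates and transcripts, and RefSeq (GRCh38.p14) gave promoters.

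The quasi-likelihood test of edgeR 4.0.16 (R 4.3.3) was run with TMM scaling and no covariate on the 16505 genes whose counts summed to 10 or more, with Benjamini-Hochberg adjustment and a threshold of 0.05. The SE was derived from the fitted log2 fold change and its F. The common biological coefficient of variation was 3.12%. No pair of replicates matched within counting noise (chi-square over its degrees of freedom, 2.61 to 3.60). Intervals cover these libraries only, and floors at 0 counts cover counting error only. Scripts were tested on simulated data.

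The members and gene lists were chosen with earlier results of these data known. All members were named, with up to 5 called genes of each pathway list with the largest change, the 5 genes most alike in pattern, and a few genes for their role or after their values were seen. The motif count over other genes, the ratios to MT1X and the fibroblast sum without THY1 were added after the data were examined. Alternatives were DESeq2 1.42.0, limma-voom (limma 3.58.1), RLE factors, library size alone without a further factor, 2 other filters, a replicate block and each library left out.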

Additional observations from a re-analysis of the deposited data

How the results depend on the processing

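Of the 8 tested members, each kept its side of the 0.05 threshold under the alternatives that gave it an adjusted p (13, but 11 for MT1M), except MT1F without PEG and HS replicate 1 (adjusted p = 0.0523). DESeq2 gave no adjusted p for MT1M, and the filterByExpr filter left it out. Leaving out single libraries called 3 to 4 members, and each other alternative called 4. The number of genes called over all genes ranged from 3114 to 3674 with a library left out and was 3398 with DESeq2. With the replicate number as a block it was 4444, and 4 members were called. Pairing by number was not seen, since same-numbered libraries deviated together with correlations of only -0.015 to 0.060, against -0.094 to 0.063 for different numbers. Counting error enters these correlations, so a small shared effect is not excluded. The log2 ratio of the summed metallothioneins was 0.39 to 0.46 with a library left out and 0.36 without MT1X. The number of copper-handling genes called fell from 2 to 0 with DESeq2 and was 0 to 2 with a library left out. The cause was not tested. Depth limits MT1H, MT1M, MT1A and MT3, which had 219 counts or fewer in all.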
